A study of Mus musculus with 6 samples.

Results

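The BCL2 family decides, at the mitochondrial outer membrane, whether that membrane stays closed, and 10 of its genes were followed here through the loss of the inner membrane protease YME1L. The members were the pore formers *Bax* and *Bak1*, the guardians *Bcl2*, *Bcl2l1* and *Mcl1*, and the BH3-only genes *Bid*, *Bmf*, *Bbc3*, *Pmaip1* and *Bcl2l11*. They were chosen by name, as the loci of the count table whose gene names include a member, and all 10 were found among 51499 loci. The samples were 6 RNA-Seq libraries of WT mouse embryonic fibroblasts (MEFs), 3 transfected with Scr siRNA, the control, and 3 with Yme1l siRNA, collected after 72 h. Both groups therefore shared the WT genotype, a transfection and the time of collection. The labels describe the cells as a 3T3 immortalized line, whereas the study's methods describe MEFs with loxP-flanked *Yme1l* alleles, immortalized with SV40 large T antigen, from which individual clones were grown. Large T antigen binds p53, whose target genes include several of the members.

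The pore formers BAX and BAK, once activated, oligomerize and open the outer membrane, which releases cytochrome c and, through large pores, can expose mtDNA to the cytosol. Guardians such as BCL-2, BCL-XL (the product of *Bcl2l1*) and MCL-1 hold pore formers and BH3-only proteins in check. BH3-only proteins report stress, either by occupying guardians or by activating the pore formers directly, and much of their control in fibroblasts lies in transcription. Protein level, cleavage and location also govern the family, and none of these was measured in the libraries.

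The libraries held 37260605 to 45205207 counts, and levels are given as CPM, the counts of a locus scaled to the TMM-adjusted size of its library. *Yme1l1*, the target of the siRNA, had levels of 170.5, 171 and 171 CPM with Scr siRNA and of 31.6, 23.4 and 45.0 CPM with Yme1l siRNA. It was lower in all 3 knockdown libraries (log2 fold change -2.36 ± 0.20 SE, edgeR adjusted p = 3.87e-05), with replicate 3 retaining the most. Of 10 fibroblast markers, 9 were tested and *Thy1* had at most 1 count in any library. Their summed level was 34040 to 41217 CPM with Scr siRNA and 18301 to 22736 CPM with Yme1l siRNA, and 8 of the 9 fell. Of 13 markers of other cell types in the table, 6 were tested, with 2 higher, 1 lower and 3 not called, and their summed levels overlapped (48.4 to 58.6 and 30.4 to 63.9 CPM). *Adgre1* of macrophages and *Myod1* of muscle were at 0 counts, while *Cd68*, of macrophages and lysosomes, made up most of that sum (46.8 and 42.8 CPM) and was not called. The higher ones were the epithelial keratin *Krt8*, with 1 count in each control library and 23 to 31 counts in the knockdown libraries, and the endothelial receptor *Kdr*, with 3 to 9 and 38 to 43 counts. These markers are named after their values were seen. The part of the fibroblast marker change in the results on the family was not tested, and in bulk RNA fewer cells of a type and less RNA per cell cannot be told apart.

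Promoter windows of 4 members are shown because they hold a match to a motif of a stress-responsive transcription factor. RefSeq start sites gave 16 windows for 9 of the 10 members, each with 250 bases before and 50 bases after the start. The motifs were picked after the expression values were seen, both strands were searched, and a match is only a description of the letters. The other windows of *Bcl2l11* and *Bmf* held none of the motifs searched. The sequences below are from RefSeq on GRCm38.p6 and are written 5′ to 3′ along the gene. Capitals mark the FOXO element (GTAAACA or its reverse complement) in *Bcl2l11* and *Bbc3*. In *Bmf* and *Bax* they mark a 10-base half-site of the p53 consensus, and a full p53 element was not searched for. In the *Bax* window capitals also mark the E-box of MYC (CACGTG).
Bcl2l11, chr2:128125788-128126087, plus strand: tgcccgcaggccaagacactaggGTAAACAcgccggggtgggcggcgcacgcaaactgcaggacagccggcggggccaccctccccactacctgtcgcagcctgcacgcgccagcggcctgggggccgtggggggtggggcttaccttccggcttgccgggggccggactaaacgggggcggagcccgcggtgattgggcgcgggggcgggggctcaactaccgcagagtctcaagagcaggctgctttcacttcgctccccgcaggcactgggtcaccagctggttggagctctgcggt
Bbc3, chr7:16310011-16310310, plus strand: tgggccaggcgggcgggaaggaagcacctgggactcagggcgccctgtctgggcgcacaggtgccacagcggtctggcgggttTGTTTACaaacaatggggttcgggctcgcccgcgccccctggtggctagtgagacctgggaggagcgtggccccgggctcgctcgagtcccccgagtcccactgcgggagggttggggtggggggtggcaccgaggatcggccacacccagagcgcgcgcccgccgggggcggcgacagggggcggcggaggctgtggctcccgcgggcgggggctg
Bmf, chr2:118544538-118544837, minus strand: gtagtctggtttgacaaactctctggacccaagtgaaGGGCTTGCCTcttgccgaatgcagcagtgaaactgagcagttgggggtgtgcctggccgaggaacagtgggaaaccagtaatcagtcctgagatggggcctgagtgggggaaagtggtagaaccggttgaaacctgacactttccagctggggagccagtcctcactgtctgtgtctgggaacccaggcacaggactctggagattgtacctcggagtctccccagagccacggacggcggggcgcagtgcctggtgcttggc
Bax, chr7:45466849-45467148, minus strand: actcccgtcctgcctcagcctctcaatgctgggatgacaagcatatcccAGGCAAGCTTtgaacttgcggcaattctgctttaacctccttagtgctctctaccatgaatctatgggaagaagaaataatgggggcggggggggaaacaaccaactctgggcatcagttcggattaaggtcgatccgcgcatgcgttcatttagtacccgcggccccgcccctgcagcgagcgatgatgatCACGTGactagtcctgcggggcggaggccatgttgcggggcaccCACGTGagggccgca

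Counted from the start site, the FOXO element lay at position -227 in *Bcl2l11* and, on the opposite strand, at position -167 in *Bbc3*. Among all 32851 windows of the mouse annotation, 3.65% held this element. The p53 half-site lay at -213 in *Bmf* and at -201 in *Bax*, and 8.36% of all windows held it. The E-box stood at -9 and 36 in *Bax*, and another *Bbc3* window, chr7:16310181-16310480, held 1 such box at -64, against 7.15% of all windows. No member window held the interferon-stimulated response element core GAAANNGAAA (3.44% of all windows) or the CHOP-ATF4 element TGATGNAA (3.97%), and this says nothing of the factors themselves.

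With knockdown of *Yme1l*, most of the 10 members were called, in both directions. Of the 10 members, 4 rose (the *Bax* locus, *Bak1*, *Bcl2*, *Bid*), 5 fell (*Bcl2l1*, *Mcl1*, *Bmf*, *Bbc3*, *Bcl2l11*) and *Pmaip1* was not called. The calls are by edgeR's quasi-likelihood test with Benjamini-Hochberg adjustment over 14499 loci. The response was wide in these cells, since 58% of all loci tested were called, 28.4% higher and 29.6% lower, so the number of members called is to be read against that share. At least 1.5-fold, 2 members were higher (*Bcl2*, *Bid*) and 2 lower (*Bmf*, *Bcl2l11*), against 15.7% and 16.1% of all loci. For 9 of the 10 members, and for 65.4% of all loci, the 3 libraries of one group all lay above those of the other. The median log2 fold change of the members was -0.06, with a range from -2.92 to 1.92, and that of all loci was 0.01.

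**Figure D1:**
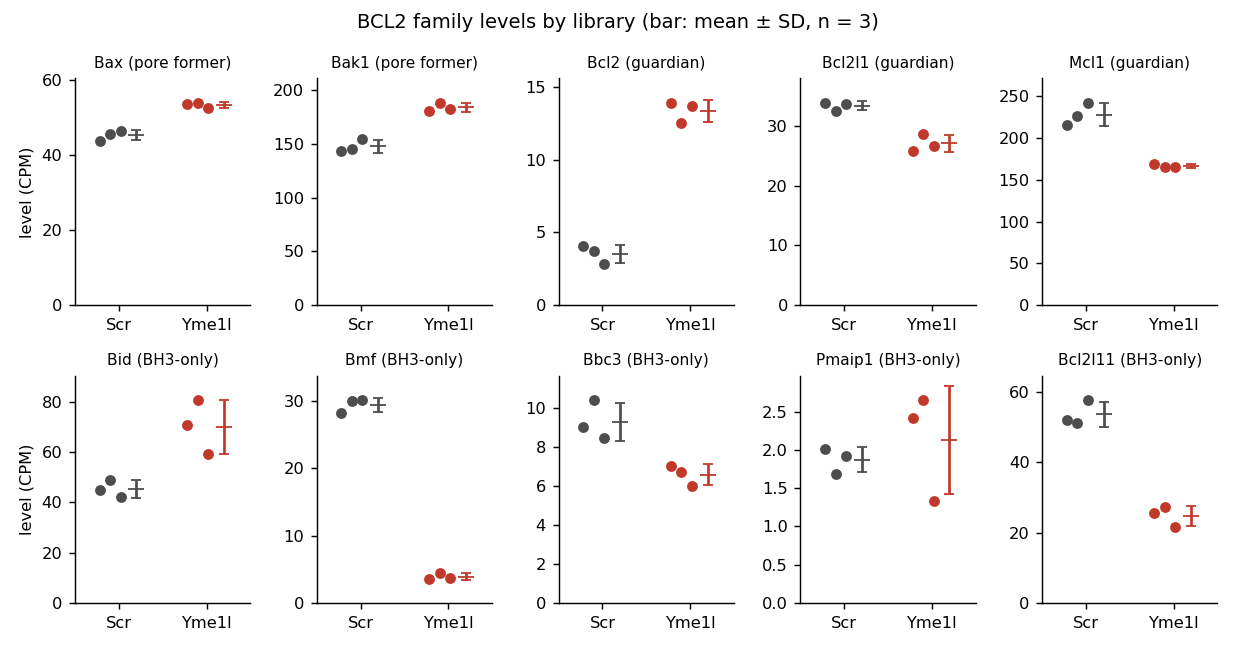
Level of each member in CPM (vertical axis, from 0) in the 3 Scr siRNA libraries (grey) and the 3 Yme1l siRNA libraries (red), with the mean ± SD of each group beside the points (n = 3 per group). The groups stand apart for every member but Pmaip1, where 1 knockdown library lies below the controls at 1.33 CPM.

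**Figure D2:**
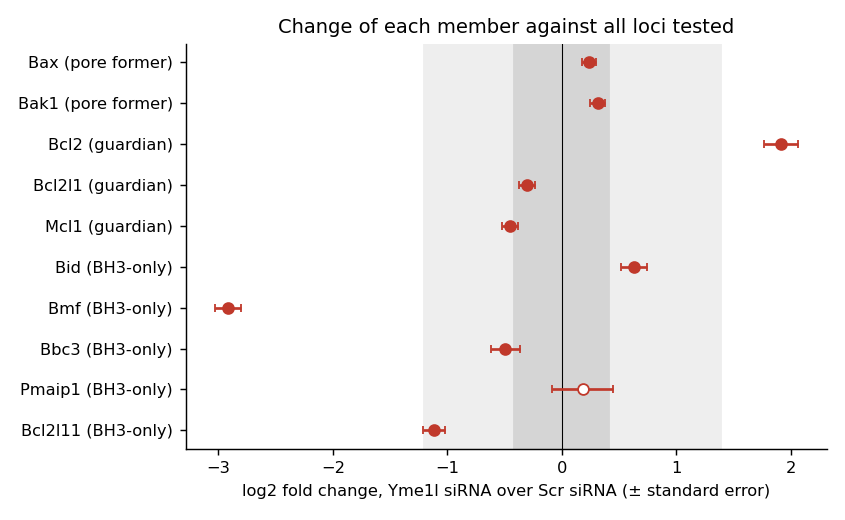
Log2 fold change of each member, Yme1l siRNA over Scr siRNA, with its standard error as the bar. Open circles mark members that were not called, and the shaded bands span the middle 50% and the 5th to 95th percentiles of all 14499 loci (-0.42 to 0.41 and -1.21 to 1.39), with Bmf below the wider band and Bcl2 above it.

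The loci of both pore formers rose by a small amount, and that of *Bax* also bears other gene names. The *Bak1* locus (XLOC_019794, chr17:27019810-27029009, minus strand, GRCm38), whose product sits in the outer membrane even in resting cells, had levels of 144, 145 and 154 CPM with Scr siRNA and of 181, 188 and 182 CPM with Yme1l siRNA. All 3 knockdown libraries were above all 3 controls, at 184 ± 3.89 against 148 ± 5.73 CPM (SD, n = 3 each). The log2 fold change was 0.32 ± 0.07 (SE, edgeR adjusted p = 0.00329), or 1.24-fold. *Ggnbp1* on the other strand shares exon bases with *Bak1*. Its locus, which also bears the name *Zbtb9*, was not called (-0.19 ± 0.08, edgeR adjusted p = 0.0611). How the counts of that locus divide between the genes was not determined.

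*Bax*, whose product is largely cytosolic until activated, was counted at a locus that also bears the names *Dhdh* and *Gm45808* (XLOC_040797, with *Bax* at chr7:45461697-45466898, minus strand). Levels of that locus were 43.8, 45.6 and 46.5 CPM with Scr siRNA and 53.6, 54.0 and 52.4 CPM with Yme1l siRNA, so the groups did not overlap. The locus rose 1.18-fold (log2 fold change 0.24 ± 0.06 SE, edgeR adjusted p = 0.00897), and how its counts divide among the 3 genes was not determined. Without Scr siRNA replicate 1 the change was 0.21 and was not called (edgeR adjusted p = 0.0546).

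The guardians moved apart from each other. *Bcl2*, the founding member of the family, rose the most of all members, whereas *Mcl1*, which encodes a short-lived guardian, and *Bcl2l1* fell. *Bcl2* (XLOC_002540, chr1:106538178-106714274, minus strand) had levels of 4.04, 3.71 and 2.84 CPM with Scr siRNA and of 13.9, 12.5 and 13.7 CPM with Yme1l siRNA. Its lowest knockdown library was thus far above its highest control. The means were 3.53 ± 0.619 and 13.4 ± 0.758 CPM (SD, n = 3 each), a 3.78-fold rise (log2 fold change 1.92 ± 0.15 SE, edgeR adjusted p = 2.46e-05). Of the loci tested, 386 (2.66%) had a higher log2 fold change. *D630008O14Rik*, which overlaps *Bcl2* on the other strand, had 0 counts in all 6 libraries.

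*Mcl1* (XLOC_026712, chr3:95658788-95663176, plus strand) had levels of 215, 226 and 242 CPM with Scr siRNA and of 169, 165 and 165 CPM with Yme1l siRNA. The 3 knockdown libraries lay close together and below every control, and the log2 fold change was -0.45 ± 0.07 (SE, edgeR adjusted p = 0.000699). A near-identical copy of a stretch of *Mcl1* in *Gm20432* had 1 count in total. *Bcl2l1* (XLOC_025588, chr2:152780668-152831728, minus strand) had levels of 33.9, 32.5 and 33.7 CPM with Scr siRNA and of 25.8, 28.7 and 26.7 CPM with Yme1l siRNA. Again no knockdown library reached a control, and the log2 fold change was -0.30 ± 0.07 (SE, edgeR adjusted p = 0.00662).

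The BH3-only genes held the steepest fall of the family. *Bmf*, whose product is tied to the cytoskeleton until released by stress such as loss of adhesion, fell 7.55-fold, and *Bcl2l11*, which encodes the potent activator BIM, fell 2.17-fold. *Bmf* (XLOC_025261, chr2:118528757-118549687, minus strand) had levels of 28.2, 30.0 and 30.1 CPM with Scr siRNA and of 3.52, 4.51 and 3.65 CPM with Yme1l siRNA. The spread within each group was small beside the gap between 29.4 ± 1.05 and 3.89 ± 0.538 CPM (SD, n = 3 each). The log2 fold change was -2.92 ± 0.11 (SE, edgeR adjusted p = 3.26e-06), and 38 of the loci tested (0.262%) had a lower one.

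*Bcl2l11* (XLOC_023573, chr2:128126038-128162547, plus strand) had levels of 52.2, 51.2 and 57.6 CPM with Scr siRNA and of 25.5, 27.2 and 21.6 CPM with Yme1l siRNA. Every knockdown library was well below every control, with a log2 fold change of -1.12 ± 0.10 (SE, edgeR adjusted p = 4.08e-05), and 867 loci (5.98%) had a lower one. *Bbc3*, which encodes PUMA, a p53 target that binds all guardians, was a rarer transcript (XLOC_037971, chr7:16308393-16318205, plus strand). Its levels were 8.98, 10.4 and 8.46 CPM with Scr siRNA and 7.01, 6.69 and 6.00 CPM with Yme1l siRNA, without overlap. It fell by a smaller amount (log2 fold change -0.50 ± 0.13 SE, edgeR adjusted p = 0.00941).

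*Bid* was the only BH3-only member that was called higher. Its product is cleaved by caspase-8 to link death receptors to the mitochondria. *Bid* (XLOC_037309, chr6:120891930-120916853, minus strand) had levels of 44.9, 48.9 and 42.1 CPM with Scr siRNA and of 70.6, 80.5 and 59.1 CPM with Yme1l siRNA. The knockdown libraries differed among themselves more than the controls did (70.1 ± 10.7 against 45.3 ± 3.44 CPM, SD, n = 3 each), yet all were higher. The log2 fold change was 0.63 ± 0.11 (SE, edgeR adjusted p = 0.00166), or 1.55-fold, and it was 0.53 without Yme1l siRNA replicate 2 and 0.57 without Scr siRNA replicate 3, both under 1.5-fold. *Bcl2l13* overlaps *Bid* by 628 bases of exon on the other strand and was not called (-0.22 ± 0.09, edgeR adjusted p = 0.0591).

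*Pmaip1*, which encodes NOXA, a partner of MCL-1, gave no call. With only 56 to 115 counts a library (XLOC_020734, chr18:66458533-66465565, plus strand), its levels were 2.01, 1.69 and 1.92 CPM with Scr siRNA and 2.41, 2.65 and 1.33 CPM with Yme1l siRNA. The groups overlapped, since knockdown replicate 3 was the lowest of all 6 libraries and replicates 1 and 2 were the highest. The log2 fold change of 0.18 ± 0.27 (SE, edgeR adjusted p = 0.579) had a 95% interval from -0.43 to 0.79. The coefficient of variation among the knockdown libraries was 33.0%. Without Yme1l siRNA replicate 3 the value was 0.43 (edgeR adjusted p = 0.0930), and without replicate 2 it was 0.01.

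To set members beside one another, levels were divided by the length of exon at each locus, in CPM per kb. *Bax* was left out of the order, because its level was 5.04 CPM per kb over the joined locus and 28.7 CPM per kb if every count came from *Bax* itself. With Scr siRNA, *Mcl1* (66.6 ± 3.97) and *Bak1* (61.3 ± 2.38, SD, n = 3) led, and their ranges over libraries overlapped. *Bid* followed at 12.8 ± 0.969 CPM per kb. *Bcl2l1* (7.27 ± 0.167) and *Bcl2l11* (6.68 ± 0.434) overlapped with each other, ahead of *Bmf* (5.60 ± 0.200) and *Bbc3* (4.36 ± 0.463). *Pmaip1* (0.686 ± 0.0602) and *Bcl2* (0.386 ± 0.0676) were the scarcest per length.

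With Yme1l siRNA the order was different at both ends. *Bak1* stood first at 76.3 ± 1.61 CPM per kb, clear of *Mcl1* at 48.7 ± 0.568 and *Bid* at 19.7 ± 3.02. *Bcl2l1* followed at 5.90 ± 0.324, and *Bbc3* (3.09 ± 0.243) and *Bcl2l11* (3.08 ± 0.358) overlapped. *Bcl2*, the scarcest member in the controls, had risen to 1.46 ± 0.0828 CPM per kb, above *Pmaip1* (0.779 ± 0.257) and *Bmf* (0.741 ± 0.102), which overlapped with each other at the bottom. By the authors' pooled FPKM, *Bak1* was above *Mcl1* in the controls as well (91.1 against 68.1), whereas with the length of the longest transcript *Mcl1* stayed first (66.6 against 61.8 CPM per kb). With that length the Scr siRNA levels of *Bcl2l1* and *Bcl2l11* were 13.0 and 10.7 CPM per kb, in the same order.

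**Figure D3:**
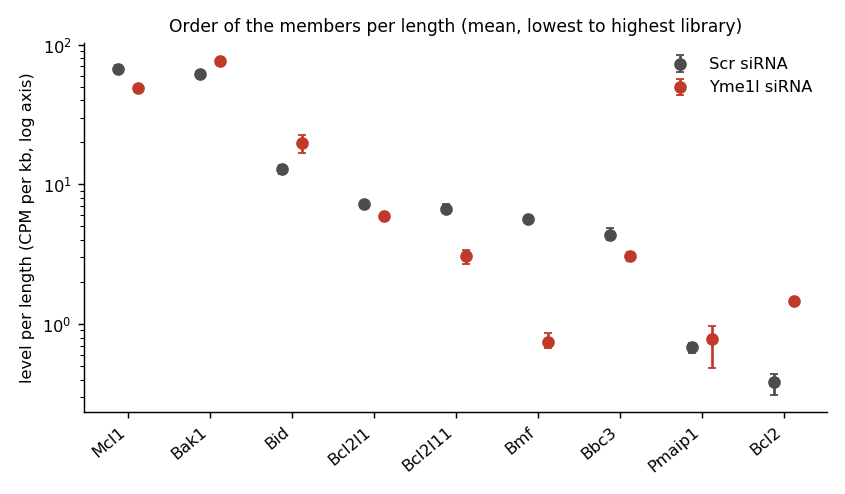
Level of 9 members per length of exon (CPM per kb, log axis) with Scr siRNA and Yme1l siRNA; points are means of 3 libraries and bars span the lowest to the highest library. Bmf goes from 5.60 to 0.741 and Bcl2 from 0.386 to 1.46, while Mcl1 and Bak1 stay the most abundant of the 9; Bax is not drawn because its locus joins 3 genes.

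The composition of each class, taken over the members alone, shifted with these changes. Relatives outside the members, such as *Bad* and *Bcl2l2*, are not in the sums. The summed level of the guardians was 74.2 ± 3.91 CPM per kb with Scr siRNA and 56.0 ± 0.391 with Yme1l siRNA (SD, n = 3 each), without overlap. *Mcl1* made up 89.7% of that sum in the controls and 86.9% after knockdown, *Bcl2l1* 9.81% and 10.5%, and *Bcl2* 0.524% and 2.60%. With the length of the longest transcript, the shares were 83.1% and 79.7% for *Mcl1*, 16.2% and 17.3% for *Bcl2l1*, and 0.618% and 3.04% for *Bcl2*. The strong rise of *Bcl2* thus concerned a small part of the mRNA of these 3 guardians. The summed level of the 5 BH3-only members was 30.1 ± 1.09 and 27.4 ± 3.88 CPM per kb, with overlap between the groups. Within that sum *Bid* went from 42.4% to 71.9%, *Bcl2l11* from 22.2% to 11.3%, *Bmf* from 18.6% to 2.71% and *Bbc3* from 14.5% to 11.4%, and *Pmaip1* stood at 2.28% and 2.79%.

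Ratios of a member to its partner within a library do not depend on how libraries are scaled, and they are given as values with no test. *Bak1* to *Mcl1*, a pore former and a guardian that holds it, had log2 ratios per length of -0.08, -0.13 and -0.14 with Scr siRNA and of 0.61, 0.70 and 0.65 with Yme1l siRNA. Per length of exon, all control libraries thus held more *Mcl1* than *Bak1* and all knockdown libraries less, a difference of 0.77. By the authors' pooled FPKM, *Bak1* was above *Mcl1* in the controls too (91.1 against 68.1), so the order there depends on the measure. The log2 ratio of the *Bax* locus to *Bcl2l1* was higher by 0.54 after knockdown, also without overlap. *Bcl2l11* to *Bcl2l1* moved the other way, from -0.12 ± 0.08 to -0.94 ± 0.15 (SD, n = 3 each). *Bcl2* to *Bcl2l1* went from -4.25 ± 0.27 to -2.02 ± 0.16, the largest difference of the 8 pairs compared. *Bax* to *Bak1* changed by only -0.08, with groups that did not overlap. The groups overlapped for *Bbc3* to *Bcl2l1* (-0.74 and -0.93), *Bcl2l1* to *Mcl1* (-3.19 and -3.05) and *Pmaip1* to *Mcl1* (-6.60 and -6.03).

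**Figure D4:**
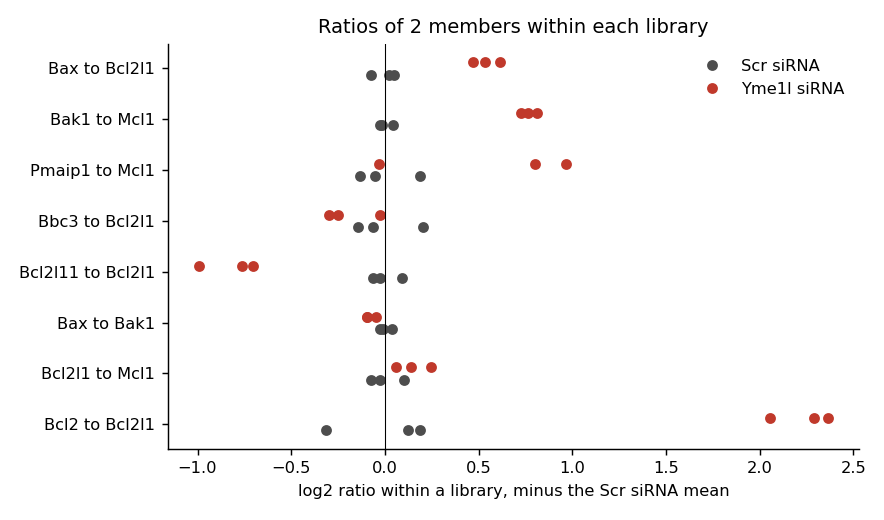
Log2 ratio of 2 members within each library, minus the mean of the Scr siRNA libraries for that pair (horizontal axis), for the 8 pairs compared; points are single libraries, grey for Scr siRNA and red for Yme1l siRNA. Bcl2 to Bcl2l1 and Bak1 to Mcl1 shift to the right by 2.24 and 0.77, and Bcl2l11 to Bcl2l1 to the left (-0.82).

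Genes around the members were described by lists taken from knowledge of the pathway. The counts in each list are to be read against all loci tested, of which 28.4% were called higher and 29.6% lower. Of 13 tested genes that are other BCL2 relatives or carry a BH3-like motif, 2 rose, 7 fell and 4 were not called, with a median log2 fold change of -0.33 against 0.01 for all loci. Of these 9 calls, 4 rest on loci joined with other genes (*Bcl2l2* with *Pabpn1*, *Bcl2a1b* with *Mthfs*, *Bcl2l15* with *Ap4b1*, *Moap1* with *Gon7* and *Itpk1*), whose counts cannot be credited to the BCL2 relative alone. The median of the list is the value of the *Bcl2l15* locus, which is among them. *Bnip3* (-1.13 ± 0.10 SE, edgeR adjusted p = 3.87e-05) and *Bnip3l* (-0.66 ± 0.06, edgeR adjusted p = 6.32e-05), outer membrane proteins of mitophagy and hypoxia, fell. *Bad*, whose product binds BCL-2 and BCL-XL when dephosphorylated, went from 41.6 ± 3.87 to 21.1 ± 1.46 CPM (SD, n = 3 each; -0.98 ± 0.09 SE, edgeR adjusted p = 5.36e-05). *Bok*, a further pore former, rose from 30.8 ± 1.38 to 39.9 ± 2.36 CPM (0.37 ± 0.07 SE, edgeR adjusted p = 0.00275). *Bik* (edgeR adjusted p = 0.878) and *Tmbim6* (edgeR adjusted p = 0.787) gave values of 0.10 and -0.03.

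Downstream of the pore lie the apoptosome, the caspases and their inhibitors, for which 15 genes were tested, with 5 higher, 4 lower, 6 not called and a median of 0.20. *Casp9*, the initiator caspase of the apoptosome, fell from 33.8 ± 1.85 to 15.7 ± 0.878 CPM (SD, n = 3 each; log2 fold change -1.10 ± 0.08 SE, edgeR adjusted p = 1.91e-05). *Birc5*, a mitotic gene of the inhibitor-of-apoptosis family, rose (1.04 ± 0.08 SE, edgeR adjusted p = 2.48e-05). *Htra2*, a protease of the intermembrane space, rose as well (0.53 ± 0.07 SE, edgeR adjusted p = 0.000231), and *Birc2* stood at -0.09 (edgeR adjusted p = 0.503).

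The arm that leads from death receptors to *Bid* gave 3 higher, 4 lower and 4 not called among 11 tested genes, with a median of -0.11. The receptor *Tnfrsf1a* (-0.55 ± 0.08 SE, edgeR adjusted p = 0.000677), its adaptor *Tradd* (-0.58 ± 0.09, edgeR adjusted p = 0.000636) and the kinase *Ripk1* (-0.49 ± 0.07, edgeR adjusted p = 0.000408) fell. *Mlkl*, the effector of necroptosis, rose (0.73 ± 0.10 SE, edgeR adjusted p = 0.000308), while its kinase *Ripk3* stood at -0.02 (edgeR adjusted p = 0.883) and *Fas* at 0.42 (edgeR adjusted p = 0.342). *Casp8*, the protease that cleaves BID, was not called (-0.11, edgeR adjusted p = 0.198), and it is named outside the list rule, after its value was seen.

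Among 6 tested regulators of guardian protein stability, 1 was higher (*Mul1*, 0.34 ± 0.08 SE, edgeR adjusted p = 0.00536) and 1 lower (*Ube2o*, -0.35 ± 0.10, edgeR adjusted p = 0.0157). The ubiquitin ligase genes *Huwe1*, *Fbxw7* and *Btrc* and the deubiquitinase gene *Usp9x*, whose products act on MCL-1, were not called, with values between -0.15 and 0.08. Transcription factors that act on BH3-only genes, and their partners and markers, gave 5 higher, 6 lower and 1 not called among 12, with a median of -0.13. *Foxo1* (-0.49 ± 0.10 SE, edgeR adjusted p = 0.00339) and *Foxo3* (-0.33 ± 0.07, edgeR adjusted p = 0.00425), whose products activate *Bcl2l11* and *Bbc3*, fell. *Trp53* rose slightly (0.22 ± 0.07 SE, edgeR adjusted p = 0.0310), as did its target *Mdm2* (0.42 ± 0.07, edgeR adjusted p = 0.00110), while the p53 target *Cdkn1a* fell (-0.46 ± 0.13, edgeR adjusted p = 0.0149).

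In the same list *Myc* rose from 109 ± 11.3 to 221 ± 12.2 CPM (SD, n = 3 each; log2 fold change 1.02 ± 0.09 SE, edgeR adjusted p = 4.26e-05), and *Cdkn2a* fell (-0.66 ± 0.08, edgeR adjusted p = 0.000159). The stress factors *Ddit3* (0.74 ± 0.17 SE, edgeR adjusted p = 0.00592) and *Atf4* (0.41 ± 0.09, edgeR adjusted p = 0.00326) rose, and *Atf3* fell (-0.57 ± 0.17, edgeR adjusted p = 0.0175). Mitochondrial membrane proteins, mostly of the outer membrane and with the inner membrane proteins OPA1 and SFXN1 among them, gave 0 higher, 6 lower and 8 not called by edgeR among 14, with a median of -0.08. Among all loci tested, 28.4% were called higher and 29.6% lower. The higher count of the list was also 0 at an unadjusted p under 0.05, by DESeq2 and by limma-voom. It was 1 with library totals only and with a filter at a mean of 50 counts. *Tomm22*, an import receptor to which BAX can bind, fell from 192 ± 8.24 to 99.5 ± 22.0 CPM (SD, n = 3 each; -0.95 ± 0.14 SE, edgeR adjusted p = 0.000589). The inner membrane carrier gene *Sfxn1* (-0.60 ± 0.09, edgeR adjusted p = 0.000781), *Dnm1l* (-0.48 ± 0.09, edgeR adjusted p = 0.00162) and *Tomm20* (-0.45 ± 0.09, edgeR adjusted p = 0.00224) fell as well. The fusion genes *Opa1* and *Mfn2* both gave 0.01 (edgeR adjusted p = 0.930 and 0.901). The channel genes *Vdac1* (0.14), *Vdac2* (-0.04) and *Vdac3* (0.03), named after their values were seen because VDAC2 binds BAK, were not called either.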

How the data were processed

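RNA-Seq was done on poly(A) RNA with a stranded kit. Per the labels and the submitters' processing notes, the authors mapped reads to GRCm38 with HISAT2 2.0.4, assembled transcripts with StringTie 1.3.3 and compared groups with Cuffdiff 2.2.1. The table of raw counts per locus was deposited without normalization, and the counting program and its use of strand and multiply mapped reads are not given in the sources used here. A second deposited table holds the authors' pooled FPKM per group, of which only these FPKM were used. Its log2 fold changes, the score that serves as test statistic, the p-values and the q-values, all deposited by the authors, were not used.

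From the counts, edgeR 4.0.16 (R 4.3.3) computed TMM factors (0.958 to 1.03) and a quasi-likelihood test over 14499 loci kept by filterByExpr (minimum count 10, total 15), with Benjamini-Hochberg adjustment and a threshold of 0.05. SE is the log2 fold change divided by the root of F. The biological coefficient of variation was 0.131. Per the study's methods, replicates were independent cultures of cells. Libraries within a group differed beyond counting noise (chi-square per degree of freedom 9.70 to 69.9). An exact permutation test of 3 against 3 cannot go below 0.1 and was not used. The script was tested on simulated data in which far fewer loci changed than were called here. That test could not show how the scaling holds under so wide a response. Alternatives were DESeq2 1.42.0, limma-voom (limma 3.58.1), other scalings and filters, a threshold of 0.01, a replicate block, removal of mtDNA loci and copies, and leaving out each library. Coordinates and exon lengths came from GENCODE on GRCm38, near-identical copies from BLAST 2.17.0. The use of *Bax*'s own exon length was an alternative added after seeing the data. The members, lists and tests were chosen with earlier results of these data known. All members were named, and from each list up to 4 genes with the smallest and 2 with the largest adjusted p, with all genes of the regulator and transcription factor lists allowed. Some genes that this rule picks are not reported here.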

Additional observations from a re-analysis of the deposited data

How the results depend on the processing

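Across 16 alternatives of the fit, 9 of the 10 members kept their call and direction, as did 159 of 160 member values. The exception was *Bax* without Scr siRNA replicate 1 (0.21, edgeR adjusted p = 0.0546). Leaving out each library, the number of members at least 1.5-fold higher ranged from 1 to 2, and it was 1 without Scr siRNA replicate 3 or Yme1l siRNA replicate 2. *Pmaip1* was not called in any of the 16, with adjusted p between 0.0930 and 0.987. Loci higher numbered 2949 and lower 3225 at a threshold of 0.01. The median of all loci moved at most to 0.08, with loci of at least 1 count. At the threshold of 0.01 or without Yme1l siRNA replicate 1, the transcription factors called lower numbered 3 and the guardian regulators called lower 0. With lengths of the longest transcript, the log2 ratio of the *Bax* locus to *Bcl2l1* after knockdown was -0.0707 instead of 0.01, with the same difference between groups. Both values rest on a length of the joined locus, so they do not place *Bax* itself beside *Bcl2l1*. If every count came from *Bax*, its level after knockdown was 33.8 CPM per kb, against 5.90 for *Bcl2l1*. The authors' pooled FPKM after knockdown were 72.9 for the joined locus and 14.6 for *Bcl2l1*.

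With the replicate number as a block, 4 members were higher and 5 lower, as without it, and 4227 loci were higher and 4460 lower. Same-numbered libraries correlated at 0.04, 0.12 and 0.19 in their deviations from group means, and not every library correlated best with its own number, so the numbers were not taken as pairs. *Pmaip1* ranged from 0.01 to 0.43 when single libraries were left out. Nothing in the sources used here says how strand or multiply mapped reads were counted, which matters for the overlapping genes named.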

Other observations

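Among the 3 knockdown libraries, replicate 3 retained the most *Yme1l1* (45.0 CPM, against 31.6 and 23.4). It also had the lowest levels of 5 members among the 3, *Bid* (59.1 CPM), *Pmaip1* (1.33 CPM), *Bcl2l11* (21.6 CPM), *Bbc3* (6.00 CPM) and *Bax* (52.4 CPM). Of these, *Bid* and the *Bax* locus rose with knockdown, *Bcl2l11* and *Bbc3* fell, and *Pmaip1* was not called. The share of all loci that were lowest in replicate 3 was not computed. *Tnfsf10*, which encodes the death ligand TRAIL and was chosen after its values were seen, had 16, 16 and 3 counts in the Scr siRNA libraries and 145, 182 and 38 counts in the Yme1l siRNA libraries, with a log2 fold change of 3.25 ± 0.67 (SE, edgeR adjusted p = 0.00321). With 3 libraries no relation between these levels was tested.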
